A study of Mus musculus with 6 samples.

Results

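Receptor-type protein tyrosine phosphatases were followed in B16-BL6 cells, an invasive mouse melanoma line, that carried a guide RNA against Ndufs4 (sgNDUFS4, 3 libraries) or a control guide (sgControl, 3 libraries). Ndufs4 encodes an accessory subunit of respiratory complex I, and the comparison was made to find expression changes that accompany the immunogenicity of the sgNDUFS4 cells. Both groups were cultured alike in DMEM with serum and pyruvate, and polyadenylated RNA was sequenced without keeping the strand. The labels do not say whether either line is a clone or a pool, nor whether the replicates were separate cultures, so p-values measure the spread between these libraries, and the guide cannot be told apart from other differences between the lines. The 9 genes described, of 22535 in the table, were picked by name: the LAR family (Ptprd, Ptprf and Ptprs) and 6 others found outside the immune system (Ptpra, Ptpre, Ptprg, Ptprj, Ptprk and Ptprm). They were picked with this same sgNDUFS4 to sgControl contrast known, so their differences are given as a description. Where the fit over all genes calls them, the call is a label and is not read as a test.

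Receptor-type phosphatases are transmembrane proteins that remove phosphate from tyrosine residues. Most carry a pair of catalytic domains inside the cell, of which the one nearer the membrane does most of the work, and their ectodomains read cell contacts or matrix. LAR family members bind heparan and chondroitin sulphate proteoglycans and neuronal adhesion proteins, and recruit liprin scaffolds and Trio through the distal domain. Ptprk and Ptprm bind copies of themselves on neighbouring cells and act on cadherin complexes, Ptpra and Ptpre remove the inhibitory phosphate from Src family kinases, Ptprj acts on receptor tyrosine kinases such as Met, and Ptprg binds contactins. PTPRD is known in human cancers as a gene that is often deleted.

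Promoter windows, from 250 bases before to 50 after a start site, were found in RefSeq (GRCm38.p6) for 8 of the 9 genes; Ptprd had none. The windows of Ptprs (chr17:56476431-56476730, minus strand) and Ptprf (chr4:118291348-118291647, minus strand) are shown because these LAR family genes differed in opposite directions. They run 5′ to 3′, and capitals mark matches on either strand to the E-box CACGTG, the cyclic AMP response element TGACGTCA or the GC box GGGCGG.
Ptprs: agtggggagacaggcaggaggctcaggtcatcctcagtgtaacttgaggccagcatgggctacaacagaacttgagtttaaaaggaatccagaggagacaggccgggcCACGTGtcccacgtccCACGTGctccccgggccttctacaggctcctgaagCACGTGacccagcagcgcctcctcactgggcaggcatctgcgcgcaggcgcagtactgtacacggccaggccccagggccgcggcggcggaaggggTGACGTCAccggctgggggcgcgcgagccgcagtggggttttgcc
Ptprf: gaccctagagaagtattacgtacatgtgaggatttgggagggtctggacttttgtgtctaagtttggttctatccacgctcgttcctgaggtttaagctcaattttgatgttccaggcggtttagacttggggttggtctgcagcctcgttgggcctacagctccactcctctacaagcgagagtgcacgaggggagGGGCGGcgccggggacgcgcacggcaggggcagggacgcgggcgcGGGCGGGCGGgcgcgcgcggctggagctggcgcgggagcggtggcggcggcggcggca
The Ptprs window held 3 E-boxes, at positions 109, 125 and 160 from its 5′ end, and 1 cyclic AMP response element, at position 256, none of which overlapped another. An E-box was found in 7.15% of 32851 windows of this length, 3 or more E-boxes in 29 of them (0.0883%), and a cyclic AMP response element in 1.79%. A second Ptprs window, 14262 bases from the annotated gene start, held no E-box and 3 GC boxes. The Ptprf window held no match to the first 2 motifs and 3 GC boxes, at positions 198, 243 and 247, the last 2 overlapping; a GC box was found in 35.7% of windows and 3 or more in 10.7%. No first window of the other 6 genes matched the E-box or the cyclic AMP response element. GC boxes were not particular to Ptprf: the first window of Ptprj held 5, that of Ptprm 2, those of Ptpra, Ptpre and Ptprk 1 each, and that of Ptprg 0. The first windows of the 8 genes held between 20 and 43 CG dinucleotides, against a median of 7 over all windows. A match describes the letters of a window and not a bound site.

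The libraries held 25817509, 23910781 and 25947374 reads counted in genes for sgNDUFS4 and 20090607, 23652793 and 22276307 for sgControl. Values are CPM, the reads of a gene scaled to a fixed library total, and 3 reads, used as the floor, came to between 0.116 and 0.149 CPM; such limits cover counting error only. Ndufs4 itself was at 14.99, 15.98 and 16.84 CPM in the sgNDUFS4 libraries and at 54.3, 55.0 and 52.4 CPM in the sgControl libraries. All 10 melanocyte markers listed were expressed, summing to between 15081 and 16162 CPM in sgNDUFS4 and between 16021 and 16539 CPM in sgControl. The highest was Pmel in sgNDUFS4 (mean 5507 CPM) and Tyrp1 in sgControl (mean 5408 CPM). Within these sums single markers moved both ways. Tyr averaged 3.10 CPM in sgNDUFS4 and 32.3 CPM in sgControl, and Kit 48.0 CPM in sgNDUFS4 and 24.8 CPM in sgControl. All 6 endothelial markers were at 0, as were the leukocyte marker Cd3e and the fibroblast markers Dcn and Lum. Leukocyte markers summed to between 5.43 and 14.3 CPM in sgNDUFS4 and between 8.53 and 14.1 CPM in sgControl. The highest of them was Lyz2 in sgNDUFS4 (mean 4.34 CPM) and Cd68 in sgControl (mean 4.84 CPM). Fibroblast markers summed to between 71.8 and 76.6 CPM in sgNDUFS4 and between 60.2 and 63.7 CPM in sgControl. Most of that gap was Pdgfrb, also a receptor tyrosine kinase of melanoma lists below, at means of 30.2 CPM in sgNDUFS4 and 19.0 CPM in sgControl. Col1a2, the highest, averaged 33.3 CPM in sgNDUFS4 and 31.5 CPM in sgControl. Pdgfra averaged 3.58 CPM in sgNDUFS4 and 2.48 CPM in sgControl, and Col1a1 went the other way, at 6.96 and 9.15 CPM.

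Of the 9 genes, 4 were higher in sgNDUFS4 and 3 lower in a limma fit (adjusted p under 0.05) over the 11063 genes that averaged 1 CPM or more, and all 9 passed that filter. Over all genes tested 31.8% were called higher and 20.3% lower, and nothing is read from the members' counts, which come from the contrast that chose them. The sgNDUFS4 libraries lay all above or all below the sgControl libraries for 6 of the 9, against 57.2% of genes tested. The median log2 fold change of the 9 was 0.05, and that of all genes tested 0.06. Ptprd and Ptprf passed the filter only through sgControl, so a call of lower adds nothing to their values. In a culture read in bulk, fewer cells with an mRNA and less of it per cell cannot be told apart.

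**Figure D1:**
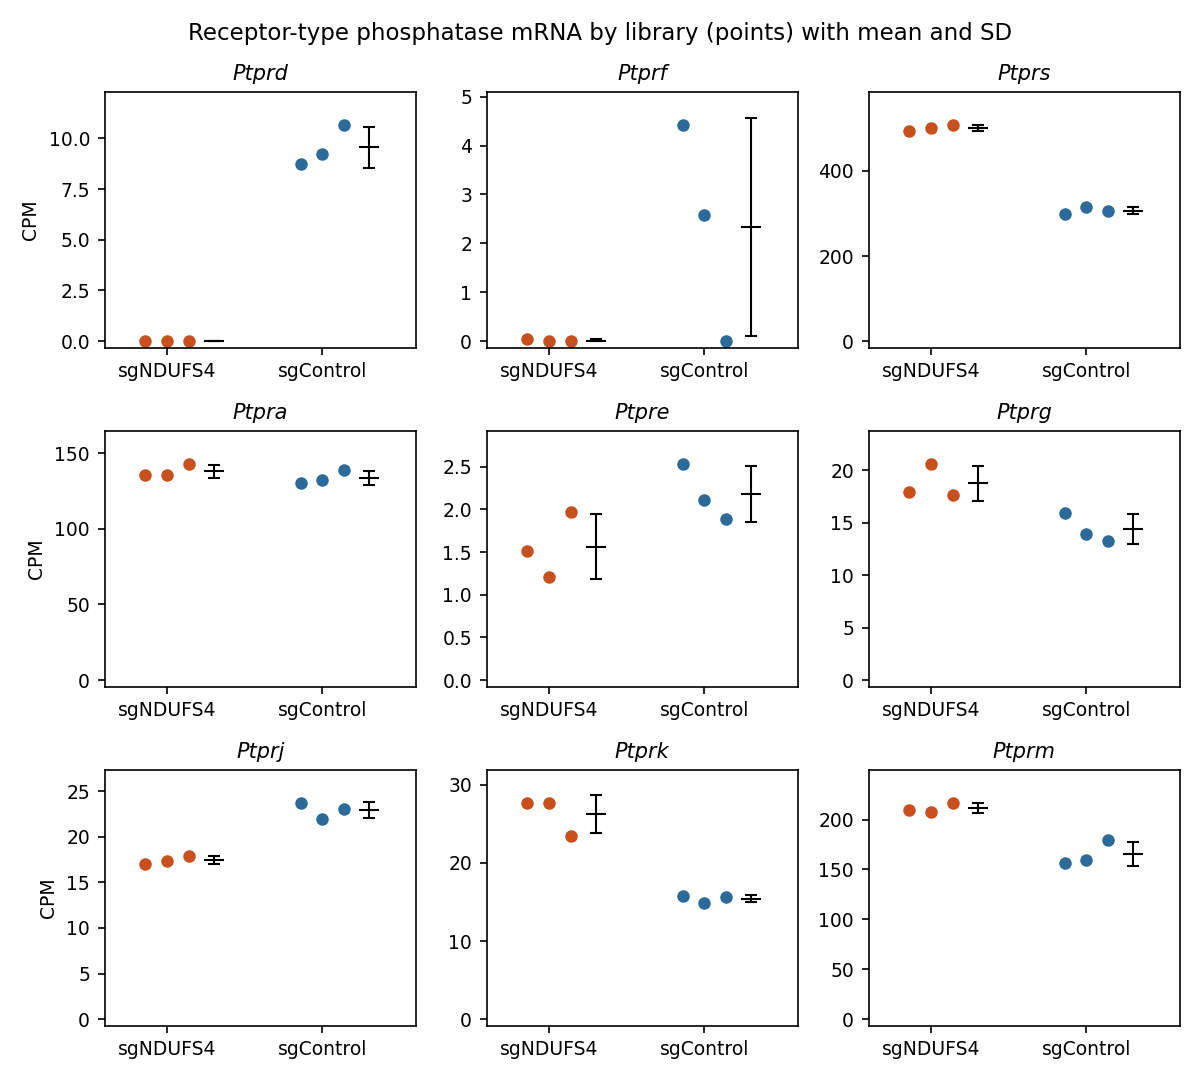
CPM of each of the 9 phosphatase genes by library, sgNDUFS4 left and sgControl right; points are libraries and the bar beside them is the mean with its SD (n = 3, cut at 0). Ptprd was at 0 in every sgNDUFS4 library, Ptprf was at 0 in 1 sgControl library as well, and Ptprs, Ptprg, Ptprk and Ptprm were higher in every sgNDUFS4 library.

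Ptprd (ENSMUSG00000028399.18, chromosome 4, 75941238 to 78211961, minus strand, GRCm38), a LAR family receptor that organises synapses in neurons, had no read in any sgNDUFS4 library. Its reads numbered 0, 0 and 0 in sgNDUFS4, and 176, 218 and 238 in sgControl, or 8.76, 9.22 and 10.7 CPM. The sgControl mean was 9.55 ± 1.01 CPM (SD, n = 3), which makes Ptprd at least 80.2-fold lower in sgNDUFS4 when 3 reads are allowed per library. No annotated gene that overlaps an exon of Ptprd, or of any of the 9, had a read counted to it. A gene without a row among the deposited values would also appear so.

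Genes around Ptprd kept much closer levels in both groups. The nearest tested gene, Dmac1, lies 662.9 kb away and was at 14.6 ± 1.37 CPM in sgNDUFS4 and 16.8 ± 0.803 CPM in sgControl (SD, n = 3 each). Tyrp1, a melanin enzyme 2622.2 kb off on the other side, fell to 4869 ± 214.5 CPM in sgNDUFS4, against 5408 ± 51.5 CPM in sgControl, or -0.15 on the log2 scale (limma adjusted p = 2.0e-05). The 5 nearest tested genes on each side had log2 fold changes between -0.23 (Frmd3) and 1.00 (Rasef). Of these 10, Rasef and Lurap1l rose, Frmd3 and Tyrp1 fell, and Aldoart1, Kdm4c, Dmac1, Mpdz, Nfib and Zdhhc21 did not pass. The median over the 50 nearest tested genes was -0.04.

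**Figure D2:**
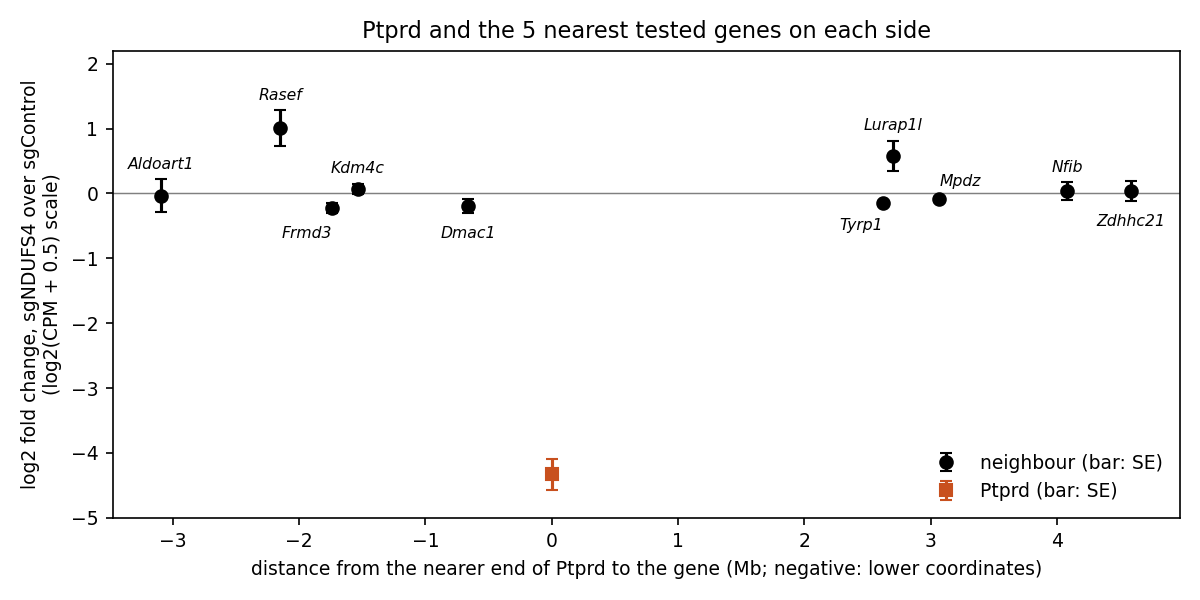
Log2 fold change, sgNDUFS4 over sgControl, of Ptprd and of the 5 nearest tested genes on each side against their distance in Mb from the nearer end of Ptprd; bars are standard errors (limma, n = 3 libraries a group). The neighbours lie between -0.23 and 1.00; the Ptprd value depends on the 0.5 CPM added before the logarithm and is not a bound.

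The pattern of Ptprd over the 6 libraries was closest to that of Xlr, Sdk1 and Pycard, at distances of 0.59, 0.67 and 0.78 (root of the summed squared differences in log2(CPM + 0.5)). Each of these was also at 0 in every sgNDUFS4 library. Their sgControl means were 11.8 ± 0.697, 12.3 ± 0.933 and 6.94 ± 1.17 CPM (SD, n = 3). They lie on chromosomes X, 5 and 7. Sdk1 is an immunoglobulin superfamily adhesion protein, and Pycard the inflammasome adaptor. Xlr has near-identical copies, so its counts are uncertain.

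Ptprf (ENSMUSG00000033295.14, chromosome 4, 118208213 to 118291405, minus strand), the phosphatase LAR itself, was near 0 in sgNDUFS4 and uneven among the sgControl libraries. It had 1, 0 and 0 reads in sgNDUFS4, and 89, 61 and 0 reads in sgControl. These are 0.0387, 0 and 0 CPM, against 4.43, 2.58 and 0 CPM, so the groups overlapped at 0 through sgControl replicate 3. Pooled over libraries, the sgNDUFS4 rate was 0.582% of the sgControl rate (exact 95% interval 0.0146% to 3.29%), an interval that leaves out the spread between libraries. The log2 fold change was -1.94 (SE 0.52); it was -2.93 without sgControl replicate 3, and -1.28 without sgControl replicate 1, where Ptprf was no longer called.

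Krt8, a keratin of simple epithelia, matched Ptprf library by library at a distance of 0.13. It was at 0, 0 and 0 CPM in sgNDUFS4 and at 4.38, 2.75 and 0 CPM in sgControl. The next closest gene was Has2, a hyaluronan synthase, at a distance of 1.25, with 0.271, 0.251 and 0.308 CPM in sgNDUFS4 and 3.29, 2.24 and 0.224 CPM in sgControl. Hpcal1 followed at a distance of 2.19. The 6 epithelial markers listed summed to 0.775, 1.25 and 0.424 CPM in sgNDUFS4 and to 6.27, 5.07 and 1.35 CPM in sgControl. Krt8 is 1 of these 6 and held most of the sum in sgControl replicates 1 and 2, so the sum is not independent of it. Cdh1 had the highest mean over all 6 libraries, but in sgControl Krt8 did (2.38 CPM, against 1.75 CPM for Cdh1). Krt18 was at 0 in all libraries, and 4 of the 6 averaged under 1 CPM. Epcam and Krt14 averaged 0.0423 and 0.0449 CPM in sgControl and were at 0 in sgNDUFS4. Krt5 went the other way, at 0.171 CPM in sgNDUFS4 and 0.0150 CPM in sgControl. Whether any epithelial cells were present, or had a part in the Ptprf values, was not tested.

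**Figure D3:**
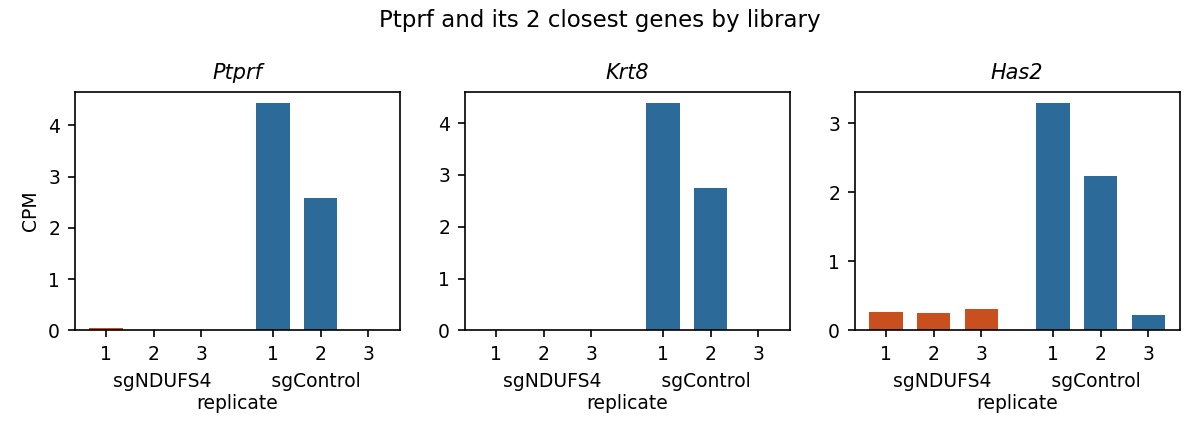
CPM of Ptprf and of the 2 genes closest to it in level and pattern, Krt8 and Has2, in each library (bars, 1 per replicate; sgNDUFS4 left, sgControl right). All 3 are highest in sgControl replicate 1 and lower in replicate 2, and Ptprf and Krt8 are at 0 in sgControl replicate 3.

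Ptprs (ENSMUSG00000013236.17, chromosome 17, 56412426 to 56476483, minus strand), the LAR family receptor for heparan and chondroitin sulphate chains, was the most abundant of the family and was higher in every sgNDUFS4 library. It was at 493.8, 499.9 and 508.9 CPM in sgNDUFS4, and at 298.8, 315.3 and 305.1 CPM in sgControl. Means were 500.9 ± 7.59 and 306.4 ± 8.29 CPM (SD, n = 3 each), a ratio of 1.63 and a log2 fold change of 0.71 (SE 0.03). The groups did not overlap, which is a description for a gene picked with this contrast known. Across fits with other settings the log2 fold change lay between 0.59 and 0.74.

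The genes closest to Ptprs were Kifc3, a kinesin, Fat1, a giant protocadherin, and Cald1, an actin-binding regulator of contractility, at distances of 0.18, 0.26 and 0.47. Kifc3 averaged 533.0 ± 4.65 CPM in sgNDUFS4 and 311.8 ± 2.07 CPM in sgControl (SD, n = 3 each). Fat1 averaged 458.8 ± 2.44 CPM in sgNDUFS4 and 317.6 ± 11.97 CPM in sgControl. Cald1 averaged 488.0 ± 29.7 CPM in sgNDUFS4 and 259.8 ± 18.0 CPM in sgControl.

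Ptprk (chromosome 10, 28074820 to 28597397, plus strand) and Ptprm (chromosome 17, 66666947 to 67354457, minus strand), the adhesive members with a MAM domain, were both higher in every sgNDUFS4 library. Ptprk was at 27.7, 27.7 and 23.5 CPM in sgNDUFS4 and at 15.8, 14.9 and 15.6 CPM in sgControl, a log2 fold change of 0.75 (SE 0.09). Ptprm was at 209.9, 207.4 and 217.1 CPM in sgNDUFS4 and at 156.7, 160.0 and 179.4 CPM in sgControl, a log2 fold change of 0.36 (SE 0.04). Genes around Ptprk were also higher, with a median of 0.22 over its 50 nearest tested genes, and relative to that median Ptprk was at 0.52. Ptprm relative to its own neighbours was at 0.25.

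Ptprg (chromosome 14, 11553532 to 12242041, plus strand), with a carbonic anhydrase-like ectodomain, was at 17.97, 20.7 and 17.7 CPM in sgNDUFS4 and at 15.98, 13.9 and 13.2 CPM in sgControl. The groups lay close but did not overlap, and the log2 fold change was 0.37 (SE 0.11). Ptprj (chromosome 2, 90429754 to 90580647, minus strand), a member with a single catalytic domain, was the other gene below sgControl besides Ptprd with groups that did not overlap. It was at 17.0, 17.3 and 17.9 CPM in sgNDUFS4 and at 23.7, 22.0 and 23.0 CPM in sgControl, a log2 fold change of -0.39 (SE 0.09).

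Ptpra (chromosome 2, 130450278 to 130556124, plus strand) and Ptpre (chromosome 7, 135537481 to 135686293, plus strand), the pair that acts on Src kinases, were not called. Ptpra was at 135.5, 135.8 and 143.1 CPM in sgNDUFS4 and at 130.2, 132.0 and 138.8 CPM in sgControl. Its log2 fold change was 0.05 (SE 0.04) as deposited and -0.01 with TMM scaling, edgeR or DESeq2, so its sign depends on scaling. Ptpre was at 1.51, 1.21 and 1.97 CPM in sgNDUFS4 and at 2.54, 2.11 and 1.89 CPM in sgControl. It rests on between 29 and 51 reads in a library, and the groups overlap.

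Per kilobase of exon, 3 genes made up most of the phosphatase mRNA in both groups. In sgNDUFS4 the order of mean levels was Ptprs (33.4 CPM per kb), Ptprm (24.0), Ptpra (12.7), Ptprj (2.09), Ptprk (1.97), Ptprg (1.70), Ptpre (0.153), then Ptprf and Ptprd. In sgControl it was Ptprs (20.4 CPM per kb), Ptprm (18.7), Ptpra (12.3), Ptprj (2.74), Ptprg (1.31), Ptprk (1.16), Ptprd (0.419), Ptprf (0.255) and Ptpre (0.214). Neighbours in the order whose libraries overlapped were Ptprj and Ptprk, Ptprk and Ptprg, and Ptprf and Ptprd in sgNDUFS4. In sgControl they were Ptprs and Ptprm, Ptprd and Ptprf, and Ptprf and Ptpre. Lengths are unions of all annotated exons, 22.8 kb for Ptprd, and understate genes whose long isoforms are not used.

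The summed level per kilobase of the 9 genes was 75.1, 75.5 and 77.4 CPM per kb in sgNDUFS4 and 56.3, 57.2 and 59.3 CPM per kb in sgControl. Ptprs made up 43.9%, 44.2% and 43.8% of that sum in sgNDUFS4 and 35.4%, 36.75% and 34.4% in sgControl. Within the LAR family it made up 99.99%, 100% and 100% of the per-kilobase sum in sgNDUFS4 and 95.8%, 96.8% and 97.8% in sgControl. The share of Ptprm in the sum of 9 overlapped between groups, at 31.7%, 31.1% and 31.8% in sgNDUFS4 and 31.5%, 31.7% and 34.3% in sgControl.

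**Figure D4:**
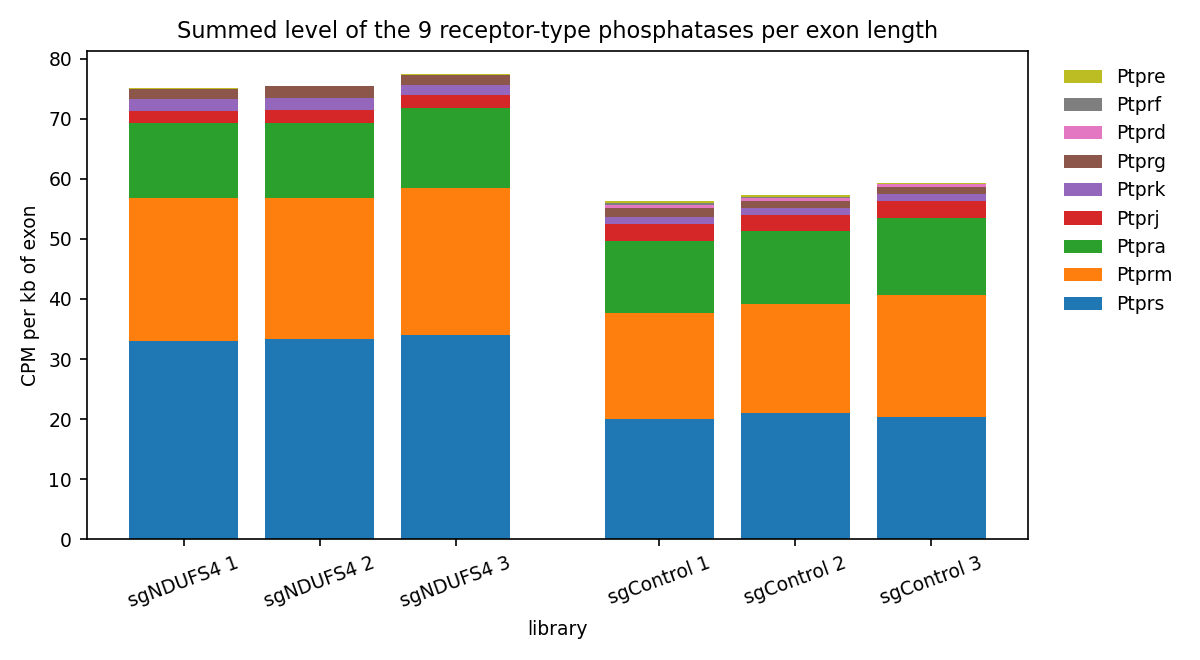
Level per kilobase of exon (CPM per kb) of the 9 genes, stacked, in each library (sgNDUFS4 left, sgControl right). Ptprs, Ptprm and Ptpra fill most of each bar, and the sum is between 75.1 and 77.4 CPM per kb in sgNDUFS4 and between 56.3 and 59.3 CPM per kb in sgControl.

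The 9 genes are long. They span 64.1 to 2270.7 kb with a median of 150.9 kb, against a median of 24.7 kb over 10894 tested genes with a position. Only 2 of those genes, Ptprd among them, span as much as Ptprd. They lie on 6 chromosomes: Ptprd and Ptprf on 4, Ptprs and Ptprm on 17, Ptpra and Ptprj on 2, and the others on 7, 10 and 14.

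The other classical phosphatases moved in both directions. Of 12 other receptor-type genes listed, 8 were at 0 in every library and 1, Ptprv, is not analysed here. Ptprc, the leukocyte phosphatase CD45, averaged 0.313 CPM in sgNDUFS4 and 0.293 CPM in sgControl, and Ptprb was also under 1 CPM. The 1 tested was Ptpru, a relative of Ptprk and Ptprm, at 0.731 ± 0.307 CPM in sgNDUFS4 and 1.36 ± 0.742 CPM in sgControl (SD, n = 3 each, limma adjusted p = 0.19). Of 17 non-receptor phosphatases 13 were tested, and 5 rose, 4 fell and 4 did not pass. Over all genes tested, 31.8% were called higher and 20.3% lower. Ptpn23, which sorts receptors on endosomes, rose to 177.6 ± 4.19 CPM in sgNDUFS4, against 143.1 ± 2.74 CPM in sgControl (limma adjusted p = 3.2e-07). Ptpn13 fell by 0.59 and Ptpn11, the RAS pathway phosphatase SHP2, by 0.27 on the log2 scale. Ptpn14, at 131.5 ± 0.637 CPM in sgNDUFS4 and 136.1 ± 6.72 CPM in sgControl, did not pass (limma adjusted p = 0.36). Over these 29 genes the 14 tested had a median log2 fold change of -0.02, against 0.06 for all genes tested.

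Ligands of the phosphatases were partly silent and changed in both directions. Of 35 listed, 16 were at 0 in every library, as were 9022 of all 22535 genes. Another 16 were tested, of which 4 rose and 5 fell, beside 31.8% called higher and 20.3% lower over all genes tested. Their median log2 fold change was -0.02, against 0.06 for all genes tested. Of 12 protein ligands of the LAR family, 7 were at 0, among them every Slitrk gene listed but Slitrk2. Lrrc4b, a neuronal adhesion protein, fell to 16.8 ± 1.33 CPM in sgNDUFS4, against 21.0 ± 0.149 CPM in sgControl (SD, n = 3 each, limma adjusted p = 0.0063). Lrfn4 was at 42.8 ± 1.29 CPM in sgNDUFS4 and 41.9 ± 2.88 CPM in sgControl (adjusted p = 0.71).

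Of 17 proteoglycans 11 were tested, and 3 rose and 4 fell, beside 31.8% called higher and 20.3% lower over all genes tested. Bcan, the brain proteoglycan brevican, rose to 63.1 ± 5.54 CPM in sgNDUFS4, against 24.1 ± 1.34 CPM in sgControl (SD, n = 3 each), or 1.37 on the log2 scale (limma adjusted p = 3.2e-14). Cspg4, the melanoma chondroitin sulphate proteoglycan NG2, fell to 2.03 ± 0.165 CPM in sgNDUFS4, against 10.5 ± 1.75 CPM in sgControl and a log2 difference of -2.11 (limma adjusted p = 1.4e-10). Gpc1, a lipid-anchored heparan sulphate proteoglycan, fell to 471.4 ± 22.1 CPM in sgNDUFS4, against 625.3 ± 8.72 CPM in sgControl. Its log2 fold change was -0.41, and -0.26 relative to its 50 nearest tested genes. Sdc4, at 57.9 ± 3.29 CPM in sgNDUFS4 and 56.0 ± 4.35 CPM in sgControl, did not pass (limma adjusted p = 0.53). All 5 contactins were at 0. Thbs1, a matrix protein that binds Ptprj, rose to 74.2 ± 4.45 CPM in sgNDUFS4, against 21.2 ± 4.59 CPM in sgControl, which is 1.81 on the log2 scale (limma adjusted p = 4.0e-14).

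Intracellular partners and substrates were more often called higher than lower. Of 45 listed 31 could be tested, and 18 rose and 4 fell, beside 31.8% called higher and 20.3% lower over all genes tested. The median log2 fold change was 0.20, against 0.06 for all genes tested. With TMM scaling 12 were higher and 6 lower, beside 2744 higher and 2862 lower of all 11063 genes tested. That scaling changed the share of higher among all calls to 48.9%, against 61.1% as deposited. The edgeR and DESeq2 fits also called 12 partners higher and 6 lower. Of the 8 LAR family scaffolds tested, 6 rose and 1 fell. The liprin Ppfibp1 rose to 334.3 ± 9.18 CPM in sgNDUFS4, against 276.2 ± 0.607 CPM in sgControl, and Trio, a guanine nucleotide exchange factor, to 180.5 ± 8.46 CPM, against 146.4 ± 10.97 CPM in sgControl (SD, n = 3 each). Their log2 fold changes were 0.27 and 0.30 (limma adjusted p = 1.5e-07 and 8.1e-06). Cask, a scaffold on chromosome X, fell by 0.88 on the log2 scale, and stood at -0.14 relative to its 50 nearest tested genes. Those neighbours had a median of -0.74, and the neighbours of Slitrk2 and Gpc4, also on chromosome X, had medians of -0.86 and -0.81. Erc1, at 50.2 ± 3.20 CPM in sgNDUFS4 and 45.9 ± 1.18 CPM in sgControl, did not pass (limma adjusted p = 0.099).

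Among Src and Abl family kinases and Src regulators, 10 were tested, and 3 rose and 2 fell. These counts are near the shares over all genes tested, 31.8% higher and 20.3% lower. Src fell to 43.0 ± 1.72 CPM in sgNDUFS4, against 63.2 ± 2.004 CPM in sgControl (SD, n = 3 each), or -0.55 on the log2 scale (limma adjusted p = 2.2e-08). Fyn rose by 0.22, and Csk, which places the inhibitory phosphate on Src, fell by 0.14 on the log2 scale; relative to their nearest genes they were at 0.04 and -0.27. Abl1 was at 173.5 ± 1.98 CPM in sgNDUFS4 and 162.1 ± 8.91 CPM in sgControl (limma adjusted p = 0.0503).

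Of 9 cadherins, catenins and junction proteins tested, 6 rose and 1 fell, beside 31.8% called higher and 20.3% lower over all genes tested. The 1 that fell was Cdh1, E-cadherin, named after its values were seen and also in the epithelial marker list, at 0.647 CPM in sgNDUFS4 and 1.75 CPM in sgControl. Ctnna1 rose to 421.0 ± 6.28 CPM in sgNDUFS4, against 351.1 ± 10.3 CPM in sgControl (SD, n = 3 each, limma adjusted p = 1.9e-07). Ctnnd1, the catenin p120, rose by 0.30 and Afdn by 0.26 on the log2 scale, and Afdn was at 0.05 relative to its nearest genes. Pkp4, at 144.4 ± 5.11 CPM in sgNDUFS4 and 152.4 ± 3.76 CPM in sgControl, did not pass (limma adjusted p = 0.12). Of the receptor tyrosine kinases 4 were tested and 3 rose. Met, the hepatocyte growth factor receptor, rose to 60.8 ± 2.53 CPM in sgNDUFS4, against 26.5 ± 1.05 CPM in sgControl, or 1.18 on the log2 scale (limma adjusted p = 7.6e-14). Pdgfrb, which is also in the fibroblast marker list, rose by 0.65 and Igf1r by 0.26 on the log2 scale, and Insr did not pass (limma adjusted p = 0.078). Egfr and Kdr were at 0.

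**Figure D5:**
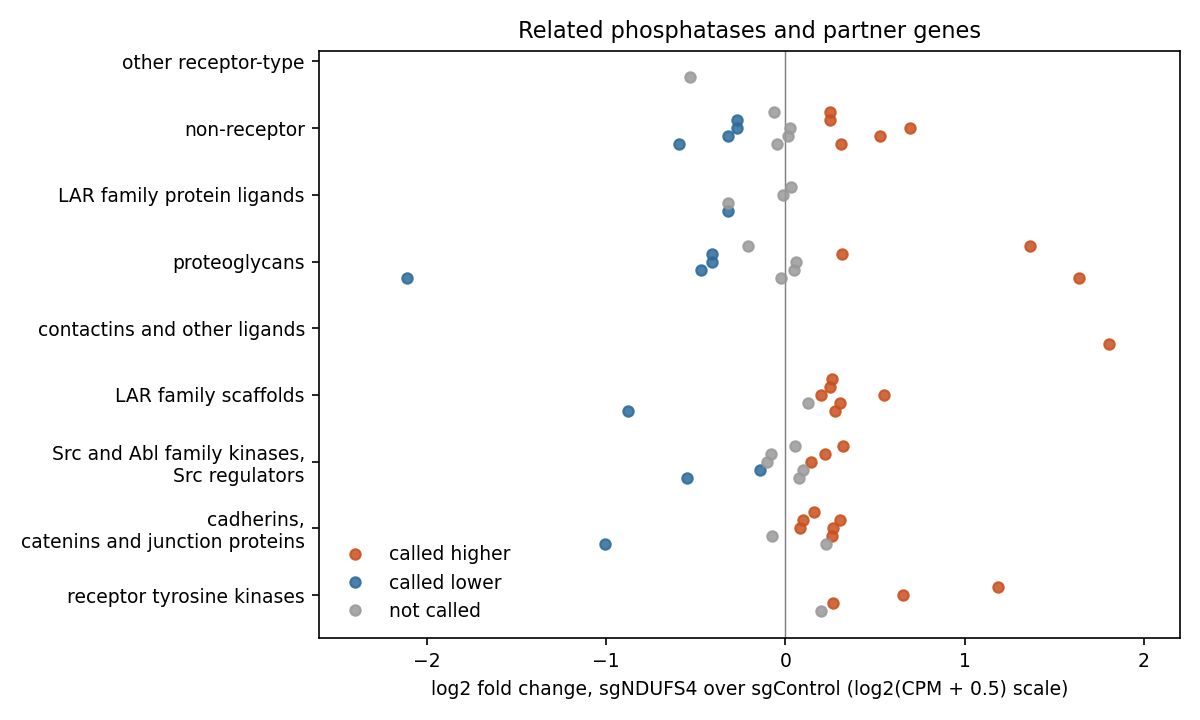
Log2 fold change, sgNDUFS4 over sgControl, of every tested gene in the lists of other phosphatases, ligands and intracellular partners (points; rows are subgroups, spread vertically for legibility; orange called higher, blue called lower, grey not called by limma). Thbs1 at 1.81 and Cspg4 at -2.11 lie farthest out.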

How the data were processed

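Polyadenylated RNA of 6 B16-BL6 libraries was analysed from 1 table of CPM values, which the authors deposited for 22535 gene rows. HISAT2 and GRCm38 are named per the submitters' processing notes; no source used here gives the counting tool, annotation or filters. The authors' own fold change and p-value columns were not used. Within each library 99.98% to 100% of CPM values were whole multiples (within 0.01) of the lowest value above 0, so reads could be recovered; edgeR called 2723 genes higher and 2860 lower on them.

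The test was limma with a mean-variance trend on log2(CPM + 0.5) for the 11063 genes that averaged 1 CPM or more, two-sided, Benjamini-Hochberg adjusted over all of them, threshold 0.05. Log2 fold changes are on that scale, which understates low genes. The software was limma 3.58.1 under R 4.3.3, with DESeq2 1.42.0 and edgeR 4.0.16 as alternatives, and the fits were tested on simulated data. Positions and exon lengths came from GENCODE M21 (GRCm38), matched by symbol. Promoter windows came from RefSeq. The members and gene lists were chosen with earlier results of these data known. Named genes are the 9 members; in each list subgroup up to 3 called genes with the smallest p and the most abundant one not called; the 3 genes closest to each LAR member; and the 5 nearest genes on each side of Ptprd. Alternatives were other pseudocounts, filters and scalings, edgeR and DESeq2 on recovered reads, a replicate block, each library left out, and centring on neighbouring genes.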

Additional observations from a re-analysis of the deposited data

How the results depend on the processing

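Across 15 alternatives, genes called higher numbered between 2603 and 3632 and genes called lower between 1959 and 2862. Counts for the 3 lists stayed within 1.5 times, except that lower intracellular partners numbered between 2 and 5 with 1 library left out, against 4 with all, and were at 2 without sgNDUFS4 replicate 3. The direction of 8 of the 9 phosphatases held in every alternative that could fit them; Ptpra turned sign with TMM scaling, edgeR and DESeq2. The fit with a filter of at least 5 CPM left out Ptprd, Ptprf and Ptpre. Ptprf was lost as a call only without sgControl replicate 1.

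Replicate numbers were not taken as pairing the libraries, because the labels do not say what the numbers share. Same-numbered libraries deviated together with r = 0.056, 0.012 and 0.097 across genes, none over 0.1. Replicates 1 and 3 of sgNDUFS4 correlated best with the sgControl library of the same number, and replicate 2 with sgControl replicate 1 (r = 0.035). Whether the numbers mark a shared batch was not tested. With a replicate block 3632 genes were higher and 2309 lower, against 3514 and 2241 without it, and 20 intracellular partners were higher and 4 lower. The block left the calls of the 9 phosphatases as they were.

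Depth limits the values of Ptprd, Ptprf and Ptpre: Ptprd and Ptprf had between 0 and 1 read in the sgNDUFS4 libraries, and Ptpre between 29 and 51 reads in every library.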

Other observations

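Absence in sgNDUFS4 was the more frequent form of complete difference. With at least 5 CPM in every library of the other group, 7 genes were without a read in all 3 sgNDUFS4 libraries and 0 genes were without one in all 3 sgControl libraries. Ptprd was 1 of the 7; the others were Enah, Sdk1, Arhgef5, Pycard, Xlr and Zdhhc15. This count was made after the values were seen, and no test was applied to it.

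The spread of Ptprf within sgControl was rare. Of 22535 genes, Ptprf and Krt8 were the 2 with no read in sgControl replicate 3 and at least 2 CPM in both other sgControl libraries, a pattern also searched for after the values were seen.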
